A study of Arabidopsis thaliana with 31 samples.

Results

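HTA8 (AT2G38810), HTA9 (AT1G52740) and HTA11 (AT3G54560) are Arabidopsis thaliana genes for the histone variant H2A.Z. They were chosen by their gene identifiers and make up 3 of the 32833 genes listed in each of the deposited tables. HTA4 (AT4G13570) is grouped with the same family but is not one of these 3, so it is described apart, and "the H2A.Z genes" stands for HTA8, HTA9 and HTA11 here. Levels were measured by RNA sequencing of whole seedlings of the Columbia-0 (Col-0) background, harvested 12 days after germination and grown on soil in long days at about 21 °C, after 4 days of stratification at 4 °C. Experiment A held the double mutant gcn5-7 arp6-1 (n = 3), the single mutants gcn5-7 and arp6-1 (n = 3 each) and wild-type Col-0 (n = 2). Experiment B held the triple mutant gcn5-7 nrp1-1 nrp2-2, gcn5-7, the double mutant nrp1-1 nrp2-2 and Col-0 (n = 5 each). Each mutant group is known here by its alleles alone, and nothing in the labels tells whether replicates came from different cultures. The p-values therefore speak of the spread over these libraries, which may be technical.

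H2A.Z takes the place of the canonical histone H2A in a share of nucleosomes, in plants mostly at the first nucleosomes of genes and over the bodies of genes that respond to environment or development. The SWR1 complex exchanges H2A for H2A.Z. PIE1 is its ATPase and ARP6 a subunit that SWR1 needs, while NRP1 and NRP2 are histone chaperones and GCN5 acetylates histone H3. The mutants therefore touch the handling of H2A.Z protein, and the values below concern the RNA of the genes that encode it.

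The coding sequences of the 3 genes differ most at the start, which codes for the N-terminal tail, with 40 of the first 90 alignment columns not the same in all 3, against 34, 26 and 26 of each next 90 and 13 of the last 51. The start is shown because it bears on whether reads of one gene could be counted for another. Over the aligned coding bases, HTA8 and HTA11 were 81.8% identical, HTA9 and HTA11 74.6%, and HTA8 and HTA9 72.6%. The longest run of identical bases shared by the exons of a pair was 29 bases (HTA8 and HTA11), 17 (HTA8 and HTA9) and 14 (HTA9 and HTA11). The first coding bases, from RefSeq on TAIR10.1, are given with capitals at the columns that differ.
HTA8: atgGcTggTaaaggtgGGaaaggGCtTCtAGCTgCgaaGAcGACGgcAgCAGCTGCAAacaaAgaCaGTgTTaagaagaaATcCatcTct
HTA9: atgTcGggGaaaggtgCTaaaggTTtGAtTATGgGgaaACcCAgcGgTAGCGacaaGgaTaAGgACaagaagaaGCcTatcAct
HTA11: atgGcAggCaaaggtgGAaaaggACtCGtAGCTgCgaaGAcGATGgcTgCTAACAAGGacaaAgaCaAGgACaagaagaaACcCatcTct
HTA9 was 6 bases shorter than the others within these columns. The whole coding sequences were 411 bases in HTA8 and HTA11 and 405 in HTA9. The coding sequence of HTA4, of 375 bases, was 73.4% identical to that of HTA8 over the bases aligned pairwise, 72.4% to HTA11 and 65.9% to HTA9, against 54.4 to 60.9% for the other 9 H2A genes.

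On TAIR10.1 (RefSeq), HTA8 lies on the minus strand at chr2:16219220-16220928, HTA9 on the plus strand at chr1:19645236-19646485 and HTA11 on the plus strand at chr3:20196140-20197726. Their merged exons add up to 884, 842 and 1061 bases, in the same order. HTA11 lies 15.7 kb upstream of GCN5, on the same strand and with 4 annotated genes between them. Of these 4 genes only AT3G54600 was high enough to be tested, and its log2 change in gcn5-7 against Col-0 was -0.21 in A (limma adjusted p = 0.996) and -0.29 in B (adjusted p = 0.668).

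Bases just before the annotated starts are shown because the genes differ in a short motif there. The site II element, TGGGCC or TGGGCT, is a promoter motif known from plant ribosomal protein and proliferation genes. Capitals mark each match on either strand, so that GGCCCA is TGGGCC on the other strand.
HTA8: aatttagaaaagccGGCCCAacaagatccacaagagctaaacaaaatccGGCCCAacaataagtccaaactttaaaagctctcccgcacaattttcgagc
HTA9: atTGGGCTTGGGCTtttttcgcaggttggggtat
HTA11: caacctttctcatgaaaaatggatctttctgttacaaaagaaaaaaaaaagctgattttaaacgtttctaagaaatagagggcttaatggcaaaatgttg
HTA8 held TGGGCC at 86 and 51 bases before its start, at chr2:16220929-16221028 as printed. HTA9 held TGGGCT at 32 and 26 bases before its start within chr1:19645202-19645235. The first 10 of these bases lie inside the neighbouring gene, AT1G52730, and they hold the match at 32 and the start of that at 26. The window of 250 bases before HTA9 reaches into the same gene. HTA11 held neither within chr3:20196040-20196139 or in its whole window of 250 bases. Among the 19390 windows of 250 bases before the genes tested in B, TGGGCC stood in 16.4%, TGGGCT in 14.3%, either form at least once in 22.3% and at least 2 times in 14.7%. Of the other motifs searched on both strands, ACGTCA stood in 7.79% of windows, AACCCTA in 5.59%, CACGTG in 6.98%, TTCCCGC in 1.19% and TTGGCGC in 0.737%, and none stood in the 3 windows here. A match in letters is a description of the sequence and not a measured site.

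The deposited values are TPM scaled by TMM, a level per base of transcript that can be compared between genes. Depth, recovered from the steps in the values, was 38.3 to 39.6 M reads (M, 10 to the power 6) for libraries of A and 10.3 to 16.8 M for those of B. HTA8 rested on 357 to 1448 reads per library in A and 56 to 210 in B, HTA9 on 2646 to 14024 and 882 to 2647, and HTA11 on 911 to 3260 and 157 to 560. Leaf genes were high, with RBCS1A, a Rubisco small subunit, at 7390 to 69185 TMM-scaled TPM over both experiments. Of 4 root genes PYK10 was present at 6.28 to 207 TMM-scaled TPM, whereas the root epidermis genes COBL9, EXPA7 and WER stayed at or below 0.902. Of 3 seed genes CRU3 and SESA3 were listed at 0 throughout, and OLEO1 reached at most 0.465. The flower genes AP3 and PI reached at most 2.36 and 2.96. ARP6 averaged 0.514 ± 0.244 TMM-scaled TPM in gcn5-7 arp6-1 and 0.214 ± 0.133 in arp6-1, against 27.2 ± 12.6 in Col-0. NRP1 averaged 11.3 ± 1.37 in the triple mutant and 6.91 ± 2.01 in nrp1-1 nrp2-2, against 27.8 ± 4.68 in Col-0, and NRP2 was listed at 0 in each triple-mutant library. GCN5 RNA overlapped between gcn5-7 and Col-0, at 4.87 to 10.2 against 5.99 to 7.48 in A and 3.55 to 6.78 against 3.65 to 7.15 in B, so its RNA does not check the gcn5-7 label.

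Libraries also differed in ways that genotype did not explain. In A, replicate 1 of gcn5-7, of arp6-1 and of Col-0 lay far from the rest on principal component 1 (68.2% of the variance). In B this component held 49.9%, and replicates 1 and 2 of nrp1-1 nrp2-2 and of Col-0, with replicate 2 of the triple mutant, lay farthest to one side. The values of a library, relative to each gene's mean, also followed exon length. This trend is given as Spearman's rho over genes, which is negative where short genes were relatively high and positive where long genes were. In A rho was 0.642 to 0.661 in gcn5-7 arp6-1, -0.572 to 0.366 in gcn5-7, -0.599 to -0.105 in arp6-1 and -0.626 and 0.559 in Col-0. In B it ran from -0.337 to 0.372 in the triple mutant, 0.0879 to 0.381 in gcn5-7, -0.502 to 0.202 in nrp1-1 nrp2-2 and -0.436 to 0.398 in Col-0.

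HTA9 had the highest level of the 3 genes, followed by HTA11 and then HTA8, and this order held in 11 of 11 libraries of A and 20 of 20 of B. HTA9 was 2.37 to 8.35 times HTA11 in A (median 3.39) and 3.35 to 7.69 times in B (median 5.81). HTA11 was 1.53 to 2.95 times HTA8 in A (median 2.11) and 1.08 to 2.99 times in B (median 1.97). HTA9 RNA thus made up 63.4 to 83.5% of the summed level of the 3 in A and 71.1 to 82.6% in B. Together the H2A.Z genes made up 17.4 to 25.4% of the summed level of 13 H2A genes in A and 17.1 to 24.4% in B, the others being HTA4 and 9 genes for canonical H2A, H2A.X and H2A.W. With HTA4 counted as H2A.Z the share was 17.9 to 25.5% in A and 17.3 to 25.0% in B. Without it, the share averaged 20.1 ± 0.838% in gcn5-7 arp6-1, 20.7 ± 3.60% in gcn5-7, 21.3 ± 3.52% in arp6-1 and 20.5 ± 1.41% in Col-0 of A. In B it averaged 18.8 ± 1.90% in the triple mutant, 21.3 ± 2.2% in gcn5-7, 20.7 ± 2.29% in nrp1-1 nrp2-2 and 20.7 ± 1.35% in Col-0. The genotypes of each experiment overlapped in this share.

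**Figure D1:**
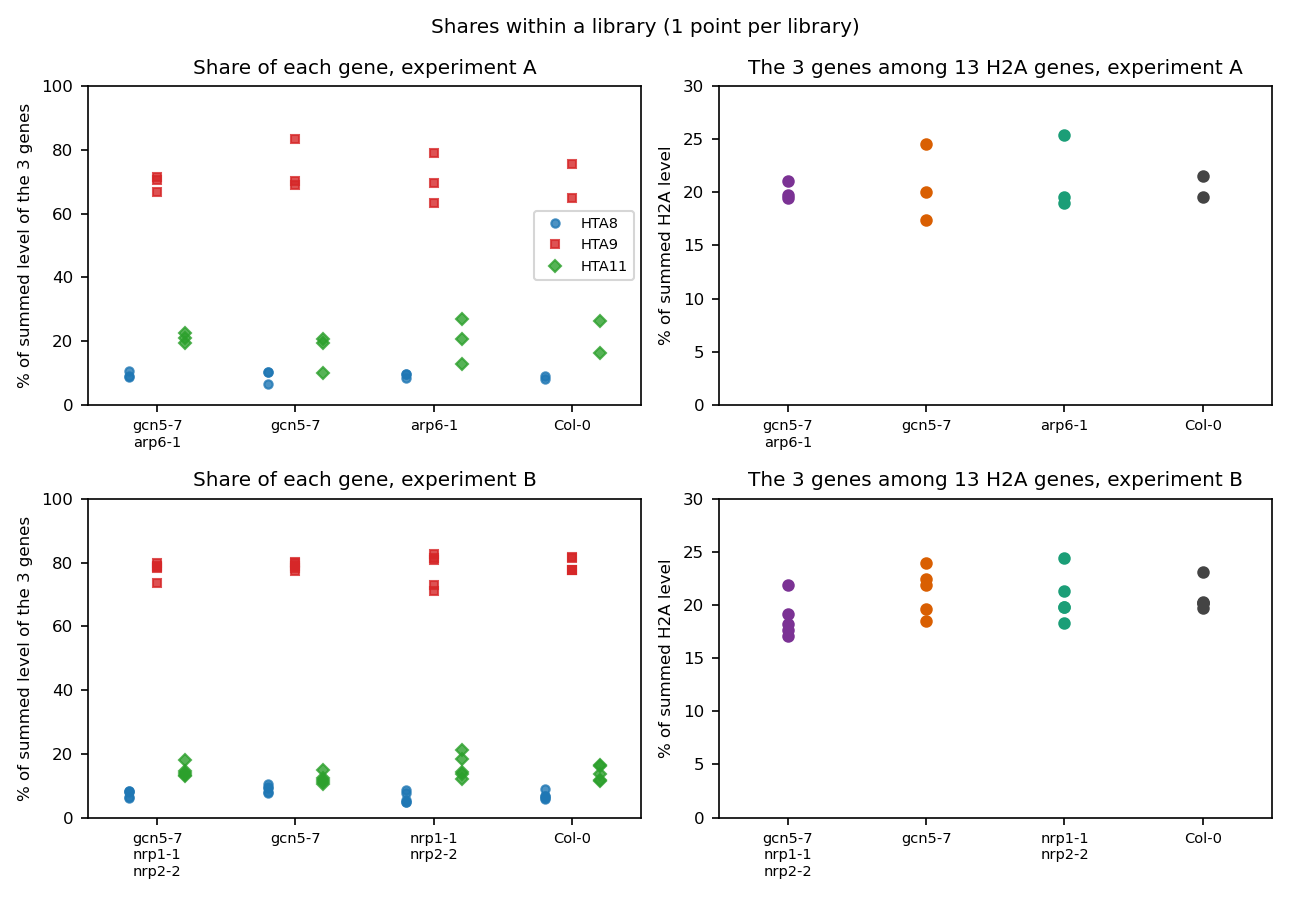
Shares within each library, 1 point per library and genotypes along the x axis. Left, the percentage of the summed level of the 3 genes from HTA8 (circles), HTA9 (squares) and HTA11 (diamonds), with HTA9 between 63.4 and 83.5% in A and 71.1 and 82.6% in B. Right, the percentage of the summed level of 13 H2A genes that came from HTA8, HTA9 and HTA11, between 17.1 and 25.4% over both experiments.

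In experiment A all 3 genes were lowest in gcn5-7 arp6-1, and the libraries of this double mutant lay close together. HTA8 stood at 13.6, 12.5 and 14.8 TMM-scaled TPM in gcn5-7 arp6-1, at 56.9, 25.4 and 23.3 in gcn5-7, at 99.9, 41.3 and 29.1 in arp6-1 and at 78.4 and 16.7 in Col-0. HTA9, the main H2A.Z gene by level, stood at 112, 97.1 and 92.1 in gcn5-7 arp6-1, at 726, 173 and 155 in gcn5-7, at 947, 268 and 212 in arp6-1 and at 723 and 121 in Col-0. HTA11 stood at 33.1, 26.5 and 31.2 in gcn5-7 arp6-1, at 87.0, 47.9 and 46.3 in gcn5-7, at 154, 113 and 63.2 in arp6-1 and at 154 and 49.1 in Col-0. Each library of gcn5-7 arp6-1 lay below each library of the other 3 genotypes for each gene, and replicate 1 was the highest library of gcn5-7, arp6-1 and Col-0 each time. For HTA8 and HTA9, replicates within those 3 genotypes differed by more than the means of the 3 genotypes did.

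**Figure D2:**
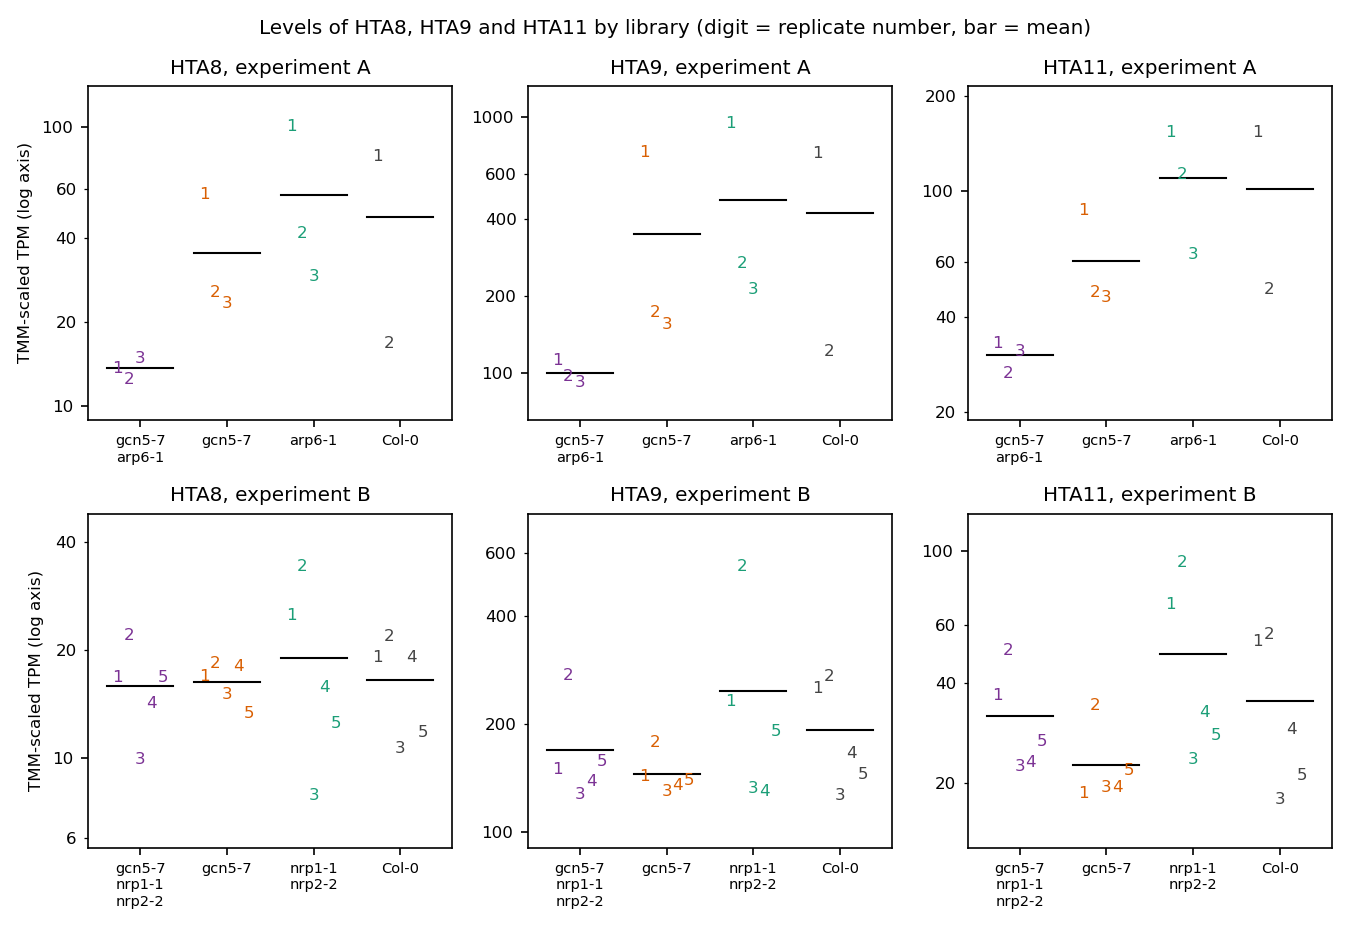
Levels of HTA8, HTA9 and HTA11 in TMM-scaled TPM on a log axis, by genotype along the x axis, in experiments A (top) and B (bottom). Digits are replicate numbers and bars are means. In A the libraries of gcn5-7 arp6-1 sit below all others and replicate 1 is highest in gcn5-7, arp6-1 and Col-0. In B the genotypes overlap.

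The comparison of the double mutant with arp6-1 asks what loss of GCN5 function adds where ARP6 is missing. HTA11 fell by 1.74 on the log2(value + 1) scale (SE 0.494, 95% interval -2.83 to -0.65, limma with Benjamini-Hochberg adjustment over 18322 genes, adjusted p = 0.0411), from 3 libraries against 3. HTA8 differed by -1.79 (interval -3.15 to -0.43, adjusted p = 0.0665) and HTA9 by -1.91 (interval -3.67 to -0.14, adjusted p = 0.101), neither past 0.05. This is 1 of 3 H2A.Z genes, where 14.8% of all genes tested were called in either direction and 2.96% as lower. All 3 genes lay below each arp6-1 library, as did 28.8% of genes tested. A term was then added for the 3 libraries that stood apart, which were picked from these same values. With it the differences were -1.27, -1.17 and -1.39 for HTA8, HTA9 and HTA11, with limma adjusted p = 0.00189, 0.000958 and 0.00178. All 3 were called, where this fit called 46.2% of all genes. After removal of the exon-length trend of each library the differences were -0.65, -0.71 and -0.90, and no H2A.Z gene was called (adjusted p = 0.143, 0.238 and 0.0738). The call for HTA11 was also lost without replicate 1 or 2 of arp6-1 or without any 1 library of gcn5-7 arp6-1, with adjusted p up to 0.147.

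Set against gcn5-7, which asks what loss of ARP6 adds where GCN5 is mutated, the double mutant differed by -1.20 for HTA8 (interval -2.55 to 0.16, limma adjusted p = 0.192), by -1.42 for HTA9 (interval -3.19 to 0.34, adjusted p = 0.228) and by -0.92 for HTA11 (interval -2.01 to 0.17, adjusted p = 0.210). None of the 3 passed, where 13.7% of genes tested did. All 3 lay below each gcn5-7 library, as did 24.4% of genes. With the term for the 3 libraries, HTA8 (-0.67, adjusted p = 0.0469) and HTA9 (-0.69, adjusted p = 0.0181) were called lower, and HTA11 was not (-0.56, adjusted p = 0.112), where this fit called 40.6% of all genes. After removal of the length trend the differences were -0.45, -0.64 and -0.35, with adjusted p of at least 0.285.

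Against Col-0 the double mutant differed by -1.36 for HTA8 (interval -2.88 to 0.16, limma adjusted p = 0.229), by -1.56 for HTA9 (interval -3.53 to 0.42, adjusted p = 0.266) and by -1.50 for HTA11 (interval -2.72 to -0.28, adjusted p = 0.157). None of the 3 passed, where 2.06% of genes tested did. All 3 lay below both Col-0 libraries, as did 21.9% of genes. This comparison rests on 2 Col-0 libraries that differed from each other 4.71-fold in HTA8, 5.96-fold in HTA9 and 3.14-fold in HTA11. Without Col-0 replicate 2 all 3 genes were called lower, at -2.45, -2.84 and -2.32, where 39.4% of all genes were called. Without Col-0 replicate 1 the differences were -0.28, -0.27 and -0.69, with none of the 3 and 0.0928% of genes called.

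The single mutants of A differed from Col-0 with wide intervals around 0, and the sign of each difference turned with the Col-0 library left out. In gcn5-7 HTA8 differed from Col-0 by -0.17 (interval -1.68 to 1.35), HTA9 by -0.14 (interval -2.11 to 1.84) and HTA11 by -0.58 (interval -1.80 to 0.64), with none of 3 called by limma where 0.142% of genes tested were. With 1 library left out these ran from -1.25 to 0.92, -1.42 to 1.15 and -1.40 to 0.23. In arp6-1, which lacks a part of the machinery that deposits the protein, HTA8 differed by 0.43 (interval -1.09 to 1.95), HTA9 by 0.35 (interval -1.63 to 2.32) and HTA11 by 0.24 (interval -0.98 to 1.46), again with none of 3 called, where 0.0164% of genes were. With 1 library left out these ran from -0.66 to 1.51, -0.93 to 1.63 and -0.57 to 1.06. The interaction, which is the departure of the double mutant from the sum of the changes of gcn5-7 and arp6-1, was -1.62 for HTA8 (interval -3.66 to 0.41, adjusted p = 0.336), -1.77 for HTA9 (interval -4.42 to 0.88, adjusted p = 0.403) and -1.16 for HTA11 (interval -2.80 to 0.47, adjusted p = 0.380). None of the 3 was called for the interaction, where 1.38% of genes were. With the term for the 3 libraries the interaction was -1.36, -1.40 and -0.98, and HTA8 (adjusted p = 0.0129) and HTA9 (adjusted p = 0.00440) were called, where this fit called 36% of all genes. Corrected for the length trend it was -0.68, -0.77 and -0.42, and none was called.

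**Figure D3:**
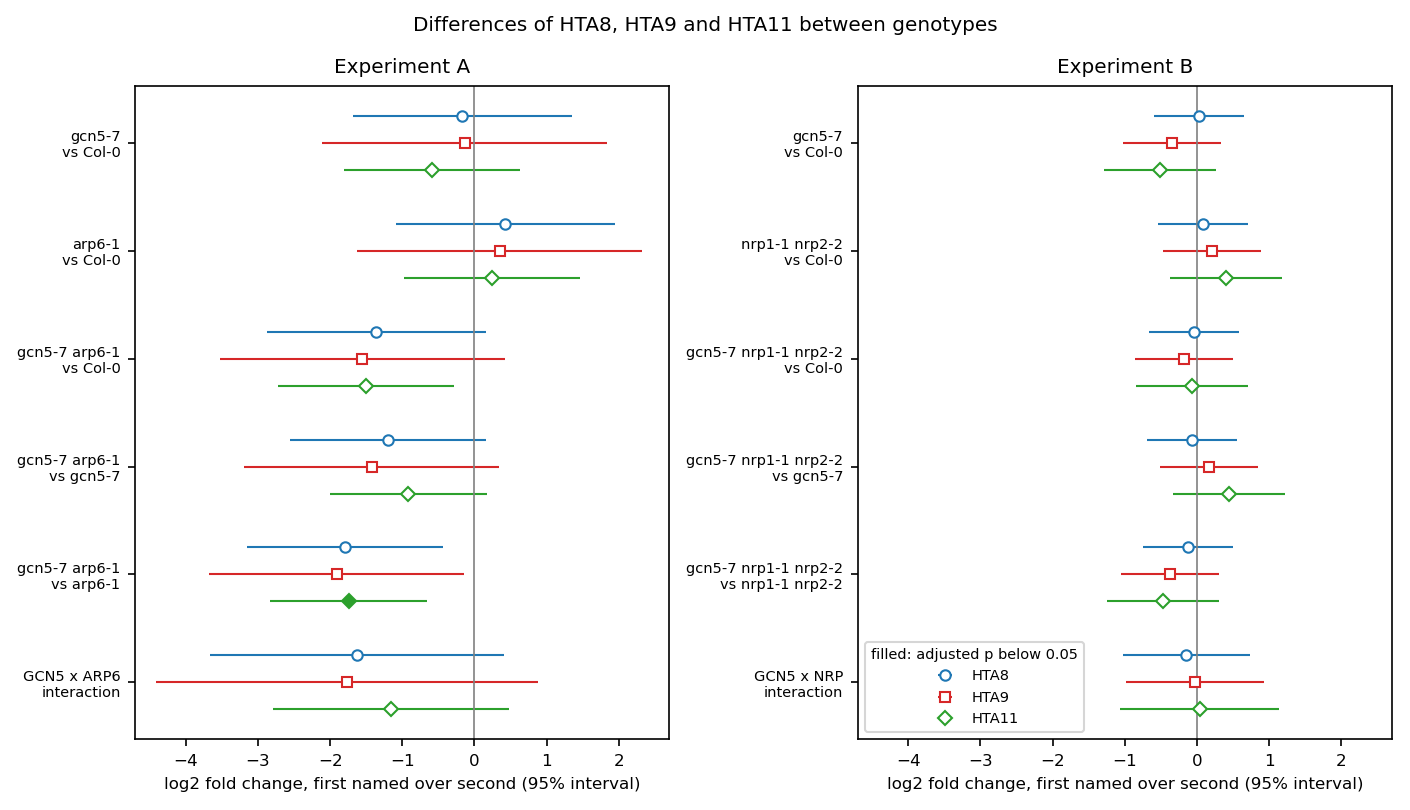
Log2 fold changes of HTA8 (circles), HTA9 (squares) and HTA11 (diamonds) with 95% intervals from limma, for each comparison of experiments A (left) and B (right), on a shared scale along the x axis. Only HTA11 in gcn5-7 arp6-1 against arp6-1 is filled, for an adjusted p below 0.05 (0.0411). Intervals are wider in A, with 2 or 3 libraries per genotype, than in B, with 5.

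The level of each H2A.Z gene moved with the exon-length trend of its library. Over the 11 libraries of A, the log2 level and rho correlated at r = -0.963 for HTA8 (Spearman -0.964), -0.946 for HTA9 (Spearman -0.973) and -0.947 for HTA11 (Spearman -0.955). Over the 20 libraries of B the values were -0.717 for HTA8 (Spearman -0.714), -0.903 for HTA9 (Spearman -0.913) and -0.918 for HTA11 (Spearman -0.916). With the 2 libraries left out that lay farthest from the median rho, r stayed between -0.980 and -0.928 in A and between -0.951 and -0.600 in B. The exons of the 3 genes add up to 842 to 1061 bases, against a median of 1723 bases for genes tested in A, and the points of an experiment share genotypes and one scaling, so these are descriptions with no test. In A the trend moved with genotype as well, since the libraries of gcn5-7 arp6-1 had the highest rho. How much of the difference between genotypes in A goes with this trend is given by the corrected values above.

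**Figure D4:**
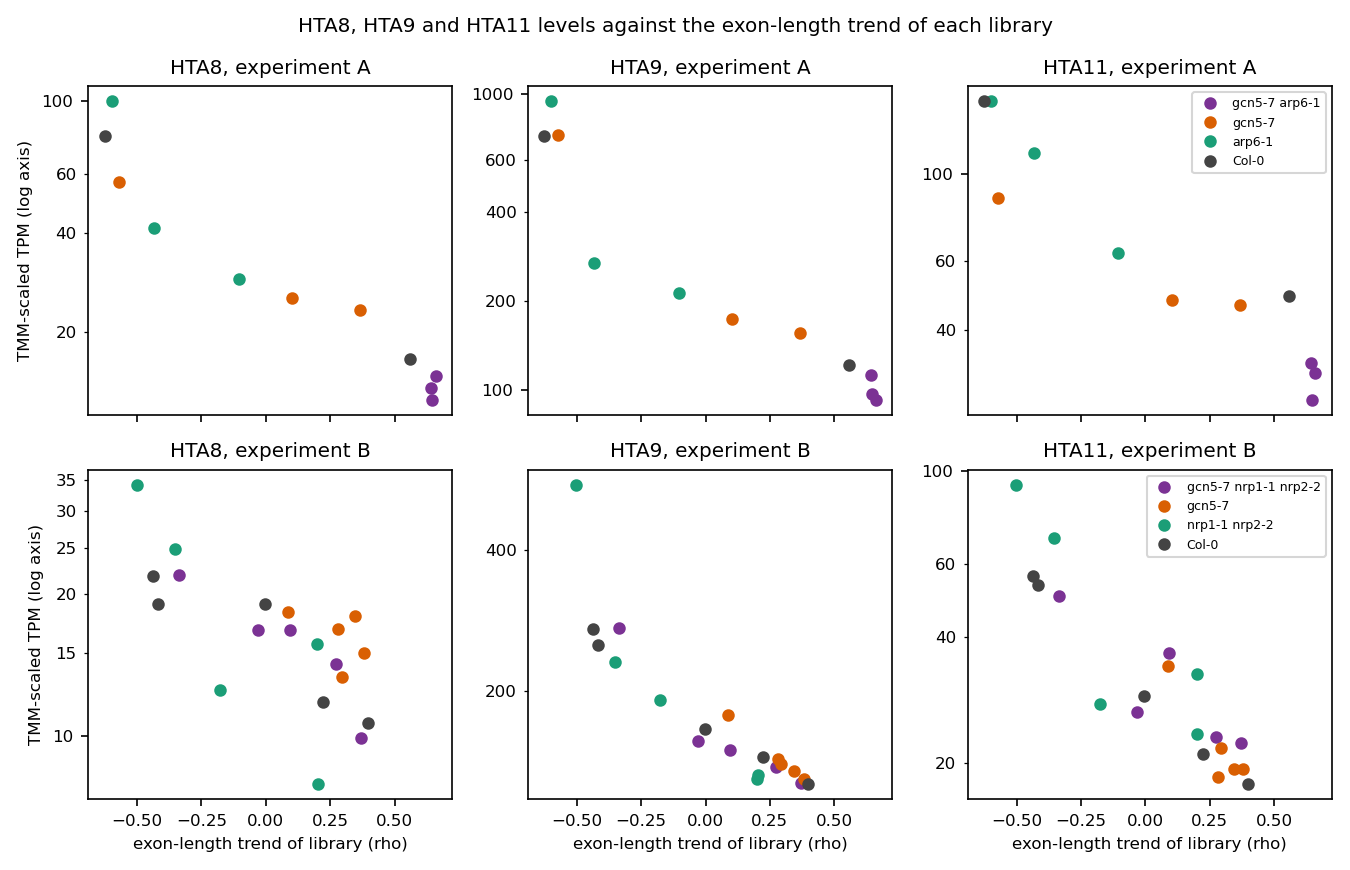
Level of each H2A.Z gene in TMM-scaled TPM (log axis) against the exon-length trend of the library (Spearman's rho over genes of the deviation from each gene's mean against exon length), 1 point per library, coloured by genotype. Levels fall as rho increases in both experiments, and the gcn5-7 arp6-1 libraries of A sit at the right, with rho of 0.642 to 0.661.

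In experiment B the 3 genes overlapped between all genotypes, and none was called in any comparison by limma without a replicate block. HTA8 stood at 16.7, 22.0, 9.90, 14.2 and 16.7 TMM-scaled TPM in replicates 1 to 5 of the triple mutant, at 16.9, 18.3, 15.0, 18.0 and 13.3 in gcn5-7, at 24.9, 34.1, 7.88, 15.7 and 12.5 in nrp1-1 nrp2-2 and at 19.0, 21.8, 10.6, 19.0 and 11.8 in Col-0. Its means were 15.9 ± 4.39, 16.3 ± 2.13, 19.0 ± 10.5 and 16.5 ± 4.94 in that order of genotypes (SD, n = 5 each). HTA8 was thus nearly level between the genotype means, with the widest spread in nrp1-1 nrp2-2.

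HTA9 stood at 149, 273, 127, 138 and 157 TMM-scaled TPM in the triple mutant, at 143, 178, 129.6, 135 and 139 in gcn5-7, at 231, 552, 132, 129 and 191 in nrp1-1 nrp2-2 and at 251, 272, 126, 166 and 144 in Col-0. Its means were 169 ± 59.2, 145 ± 19.0, 247 ± 175 and 192 ± 65.4 in that order of genotypes. Replicate 2 was the highest library of HTA9 in every genotype of B.

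HTA11 stood at 36.7, 50.2, 22.4, 23.1 and 26.6 TMM-scaled TPM in the triple mutant, at 18.6, 34.2, 19.4, 19.4 and 21.7 in gcn5-7, at 68.9, 92.6, 23.6, 32.6 and 27.8 in nrp1-1 nrp2-2 and at 53.2, 56.1, 17.9, 29.0 and 21.0 in Col-0. Its means were 31.8 ± 11.8, 22.7 ± 6.54, 49.1 ± 30.3 and 35.4 ± 18.0 in that order of genotypes. Replicate 2 was again the highest in every genotype, and replicates 1 and 2 were the highest pair in the triple mutant, nrp1-1 nrp2-2 and Col-0. In gcn5-7 only replicate 2 stood out.

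In gcn5-7 against Col-0 in B, HTA8 differed by 0.03 (interval -0.60 to 0.65), HTA9 by -0.35 (interval -1.02 to 0.33, limma adjusted p = 0.439) and HTA11 by -0.51 (interval -1.29 to 0.26, adjusted p = 0.308). None of 3 was called in this comparison, where 26.2% of 19507 genes tested were called, 11.6% as higher and 14.7% as lower. With a replicate block HTA11 was called lower. Same-numbered libraries correlated at 0.0185 to 0.601 in this comparison, lowest for replicate 1, and 6 of 10 libraries correlated best with their own number. The numbers were not taken as pairs here. The triple mutant and gcn5-7, taken as pairs, gave 0.116 to 0.538 and also 6 of 10. Whether HTA11 was called in this comparison thus turned on this choice. Without replicates 1 and 2 of every genotype HTA11 differed by -0.13 and HTA9 by -0.10. The same pair of genotypes gave -0.58 for HTA11 in A, but the experiments were scaled apart and were not tested together.

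In nrp1-1 nrp2-2 against Col-0, where both chaperone genes are mutated, HTA8 differed by 0.08 (interval -0.54 to 0.71), HTA9 by 0.20 (interval -0.48 to 0.88) and HTA11 by 0.40 (interval -0.37 to 1.18), with none of 3 called and 0.39% of genes called. In the triple mutant against Col-0 HTA8 differed by -0.04 (interval -0.66 to 0.59), HTA9 by -0.18 (interval -0.85 to 0.50) and HTA11 by -0.07 (interval -0.85 to 0.71), with none of 3 called and 2.43% of genes called. A block for replicate numbers, which pair the libraries in these 2 comparisons, left the H2A.Z genes uncalled and changed the number of genes called to 334 and 1787, against 76 and 474 without it.

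The triple mutant differed from gcn5-7 by -0.07 for HTA8 (interval -0.69 to 0.56), 0.17 for HTA9 (interval -0.51 to 0.85) and 0.44 for HTA11 (interval -0.34 to 1.22), with none of 3 called and 3.21% of genes called. It differed from nrp1-1 nrp2-2 by -0.12 for HTA8 (interval -0.75 to 0.50), -0.38 for HTA9 (interval -1.05 to 0.30) and -0.47 for HTA11 (interval -1.25 to 0.30), with none of 3 called and 0.713% of genes called. The block left the H2A.Z genes uncalled here too and changed the number of genes called to 4953 and 1237, against 627 and 139. The interaction of gcn5-7 with nrp1-1 nrp2-2 was -0.15 for HTA8 (interval -1.03 to 0.74), -0.03 for HTA9 (interval -0.99 to 0.93) and 0.04 for HTA11 (interval -1.06 to 1.14), with none of 3 called and 0.041% of genes called. The intervals and percentages given for these comparisons of B come from the fit without the block, also where the numbers were taken as pairs. Intervals with the block are not given. Those without it bound most differences to about 1 on the log2 scale or less. A p that misses 0.05 does not show that the levels were equal.

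The ratios between the members were examined in B, since a ratio within a library is free of its overall scaling. The log2 ratio of HTA8 to HTA9 averaged -3.08 ± 0.179 in gcn5-7 and -3.45 ± 0.23 in Col-0, a difference of 0.37 (2-sided exact permutation test, p = 0.0238, adjusted p = 0.214 over the 9 ratios tested). The log2 ratio of HTA8 to HTA11 averaged -0.42 ± 0.334 in gcn5-7 and -0.96 ± 0.388 in Col-0, a difference of 0.54 (exact p = 0.0635, adjusted p = 0.286). In the triple mutant the same ratios differed from Col-0 by 0.14 and 0.03, and in nrp1-1 nrp2-2 by -0.12 and -0.32. No ratio passed after adjustment, and the smallest p that 5 libraries against 5 allow is 0.00794, which a ratio that stands alone cannot bring below 0.05 after adjustment over 9.

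The 3 genes varied together over libraries. In A the log2 levels of HTA8 and HTA9 correlated at r = 0.980 (Spearman 0.964), those of HTA8 and HTA11 at 0.963 (Spearman 0.945) and those of HTA9 and HTA11 at 0.919 (Spearman 0.918), over 11 libraries. In B the same pairs gave 0.789, 0.783 and 0.900 over 20 libraries. After length correction r was 0.870, 0.862 and 0.683 in A and 0.437, 0.421 and 0.764 in B. HTA9 and HTA11 thus kept the highest r of the pairs in B, and HTA8 followed them less closely there.

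Genes whose level over the 20 libraries of B was most like that of each member were taken from the 13834 genes with a mean of at least 5 TMM-scaled TPM. HTA11 was most like HTA13, a canonical H2A gene, at r = 0.967 in B and 0.982 over the 11 libraries of A. After length correction this pair kept r = 0.923 in B but had 0.445 in A. Next came ROC1, a cyclophilin, at 0.964, AT1G09200, of the histone superfamily, at 0.954, EXPA20, an expansin, at 0.954, and ACP2, an acyl carrier protein, at 0.953. These kept r of 0.877 to 0.910 in B after length correction, whereas in A ROC1 had -0.181, AT1G09200 -0.357 and ACP2 0.862. EXPA20, at most 0.534 TMM-scaled TPM in A, was too low there for a corrected value. How high r runs between other genes was not measured, so these values of r are descriptions. HTA9 was most like AT2G04410, of the RIN4 family, at 0.981, then RPS15A, a ribosomal protein gene, at 0.979, AT3G15640, rubredoxin-like, at 0.974, AT3G48115, a non-coding RNA, at 0.973, and AT1G67350, an NADH-ubiquinone oxidoreductase gene, at 0.972. Length-corrected, AT2G04410 had 0.915 in B but -0.469 in A, and the other 4 had 0.908 to 0.960 in B and 0.944 to 0.977 in A. HTA8 was most like the ribosomal protein genes AT5G47930 (0.926), AT5G46430 (0.920) and AT5G20290 (0.920), then AT4G05815, a non-coding RNA (0.915), and AT2G33410, an RNA-binding protein gene (0.909). Length-corrected, these 5 had 0.711 to 0.844 in B, and the 4 of them with a level in A had 0.683 to 0.931 there, while AT4G05815 is listed at 0 in A.

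HTA4 was the lowest of the family and did not follow the 3 genes across genotypes. It stood at 0.57, 3.70 and 2.90 TMM-scaled TPM in gcn5-7 arp6-1, at 9.19, 7.34 and 9.80 in gcn5-7, at 5.38, 2.86 and 2.38 in arp6-1 and at 8.50 and 3.53 in Col-0. In B it stood at 2.32 to 5.98 in the triple mutant (median 3.46), 7.76 to 15.7 in gcn5-7 (median 9.37), 0.82 to 4.16 in nrp1-1 nrp2-2 (median 1.09) and 2.35 to 9.54 in Col-0 (median 7.34). Its level was highest in gcn5-7 by median in both experiments, and the libraries of either multiple mutant that carries gcn5-7 lay below all those of gcn5-7. Of all genes tested, 24.4% lay below in this way in A and 2.40% in B. It fell by 1.67 in gcn5-7 arp6-1 against gcn5-7 (limma adjusted p = 0.0421), a call lost with any 1 library left out and with the length correction (-0.82, adjusted p = 0.228). In the triple mutant against gcn5-7 it fell by 1.3 (adjusted p = 0.0389), and by 1.46 with the length correction (adjusted p = 0.0219), though leaving out 1 library ended the call in 8 of 10 fits. It was not called in nrp1-1 nrp2-2 (-1.38, adjusted p = 0.0980) or gcn5-7 (0.67, adjusted p = 0.136) against Col-0 of B, and both were called with the length correction (-1.48 and 0.95, adjusted p = 0.0486 each). The levels in nrp1-1 nrp2-2, with a median of 1.09, lay near the 1 added before the logarithm. The difference of HTA4 in that mutant thus rests on low values.

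The other H2A genes give the setting of these values. In gcn5-7 arp6-1 against arp6-1 the median log2 difference of the 9 other H2A genes was -1.62, against -1.79 for the 3 H2A.Z genes and 0.12 for all genes. HTA3, which encodes H2A.X, fell by 1.60 (limma adjusted p = 0.0336) and was the 1 of the 9 that was called, where 2.96% of all genes were called lower. This call was lost with any 1 library left out. Against gcn5-7 the medians were -0.97 for the other H2A genes, -1.20 for the H2A.Z genes and 0.12 for all genes, with HTA3 alone called (-1.69, adjusted p = 0.0259), a call lost in 5 of 6 fits with 1 library left out. Against Col-0 they were -1.48, -1.50 and 0.18, with none of the other H2A genes called. With the length trend removed, the medians of the other H2A genes were -0.37, -0.15 and -0.49 in the same 3 comparisons, HTA3 was not called, and HTA12, named after its values were seen, was called higher than in gcn5-7 (0.87, adjusted p = 0.0486). The libraries of the double mutant lay below all those of arp6-1 for 8 of the 9 other H2A genes, below those of gcn5-7 for 8 and below those of Col-0 for 6, where the shares of all genes were 28.8%, 24.4% and 21.9%. HTA12 lay above all gcn5-7 libraries, as did 32.3% of genes tested. It stood at 5.04 to 6.78 in gcn5-7 arp6-1 against 2.24 to 3.70 TMM-scaled TPM in gcn5-7.

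In gcn5-7 against Col-0 of B the medians were -0.52 for the other H2A genes, -0.35 for the H2A.Z genes and 0.06 for all genes. HTA12, which encodes H2A.W, fell to 4.01 ± 1.15 TMM-scaled TPM in gcn5-7, against 7.79 ± 1.97 in Col-0 (log2 change -0.81, limma adjusted p = 0.00652), and HTA2 fell by 0.95 (adjusted p = 0.0498). These are 2 of 9, where 14.7% of all genes were called lower, and leaving out 1 library ended the call for HTA2 in 8 of 10 fits (adjusted p up to 0.139) but not that for HTA12. With the length correction HTA2 differed by -0.67 and HTA12 by -0.70, both called. In the triple mutant against gcn5-7, HTA12 was higher by 0.79 (adjusted p = 0.0344), a call that 6 of 10 fits with 1 library left out did not make. None of the other H2A genes was called in nrp1-1 nrp2-2 or the triple mutant against Col-0, or in the triple mutant against nrp1-1 nrp2-2. With the length correction HTA3 was called higher in the triple mutant than in Col-0 (0.53, adjusted p = 0.0493).

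Genes of the SWR1 and INO80 remodelling complexes, of which SWR1 deposits H2A.Z, were taken as a list of 14, of which 13 were tested. In gcn5-7 arp6-1 against arp6-1, 6 of 13 rose and none fell, where 11.9% of all genes were called higher. PIE1, the SWR1 ATPase, stood at 6.33 ± 1.02 TMM-scaled TPM in gcn5-7 arp6-1 and 0.298 ± 0.133 in arp6-1 (log2 change 2.49, limma adjusted p = 0.00147). SWC2, a SWR1 subunit, rose by 1.87 (adjusted p = 0.00597) and MBD9, a protein that associates with SWR1, by 2.10 (adjusted p = 0.00672). The exons of PIE1 and MBD9 add up to 6964 and 7073 bases, and with the length trend removed their differences were 0.25 (adjusted p = 0.459) and -0.15 (adjusted p = 0.511), whereas SWC2, with 1899 bases, kept 1.53 (adjusted p = 0.0208). INO80, the ATPase of the INO80 complex, stayed called at 1.07 (adjusted p = 0.0224). SWC4 and ARP5, subunits called higher before the correction, were not called after it. SWC6, a SWR1 subunit (0.94, adjusted p = 0.0397), and YAF9B, a histone-tail reader of the YEATS family (1.47, adjusted p = 0.0378), were called only after it and are named here after their values were seen. This makes 4 of 13 higher, where 4.95% of genes were.

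Against gcn5-7, 4 of the 13 rose in the double mutant and 2 fell, where 9.79% of genes were called higher and 3.88% lower. Those that rose were PIE1 by 2.28 (adjusted p = 0.00150) and, named after their values were seen, SWC2, MBD9 and INO80 by 1.33, 1.68 and 2.60. ARP6 itself (-3.74) and YAF9B (-1.47, adjusted p = 0.0101) fell. With the length trend removed, ARP6, SWC2 and INO80 were still called, PIE1 (0.52, adjusted p = 0.156) and YAF9B (-1.05, adjusted p = 0.0671) were not, and MBD9 stood at -0.096. Against Col-0 PIE1 rose by 2.19 (adjusted p = 0.00941) and ARP6 fell by 4.15, and of the list PIE1 alone was called for the interaction (2.58, adjusted p = 0.0279). Length correction took PIE1 to 0.52 and 0.25 in these, with adjusted p = 0.283 and 0.711. In arp6-1 against Col-0 ARP6 was the 1 gene of the list called (-4.46, adjusted p = 0.0133), and in gcn5-7 of A none was.

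In gcn5-7 of B, 3 of 13 rose and 1 fell, where 11.6% of all genes were called higher and 14.7% lower. YAF9B rose to 6.88 ± 1.87 TMM-scaled TPM in gcn5-7, against 1.04 ± 0.307 in Col-0 (log2 change 1.93, limma adjusted p = 5.75e-05), RVB21, a helicase subunit, rose by 0.93 (adjusted p = 0.0145), and PIE1, named after its values were seen, by 1.08 (adjusted p = 0.0443). ARP6 fell by 0.56 (adjusted p = 0.0428). Leaving out 1 library ended the call for PIE1 in 7 of 10 fits and that for ARP6 in 8. Corrected for length, YAF9B differed by 2.13 and RVB21 by 1.01, both called, PIE1 by 0.06 and ARP6 by -0.45, neither called. ARP5 (0.48, adjusted p = 0.0444) was called only after the correction and is named after its values were seen. This makes 3 of 13 higher, where 13.3% of genes were. YAF9B was also higher in the triple mutant than in Col-0 (1.35, adjusted p = 0.00497), and no gene of the list was called in the other comparisons of B.

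NRP1 and NRP2, intact in gcn5-7, were higher there than in Col-0 in B, at 48.5 ± 6.92 against 27.8 ± 4.68 TMM-scaled TPM for NRP1 (log2 change 0.78, limma adjusted p = 0.00538) and 23.9 ± 4.06 against 11.8 ± 2.37 for NRP2 (0.96, adjusted p = 0.000893). In A the same genes overlapped between gcn5-7 and Col-0. Of 10 proliferation genes, whose median differences lay between -0.19 and 0.39 over the 12 comparisons, CYCB1;1 was called higher in the double mutant against gcn5-7 (1.12), MCM2 in the double mutant against arp6-1 (1.97) and MCM5 in gcn5-7 against Col-0 in B (0.81). Each is 1 of 10, where 9.79%, 11.9% and 11.6% of all genes were called higher in these comparisons. With the length correction CYCB1;1 (1.08) and MCM5 (0.54) stayed called, and MCM2 did not (0.61, adjusted p = 0.0866). Called only after it, and named after their values were seen, were TSO2 and PCNA1. TSO2 was lower in the double mutant against gcn5-7 (-0.84, adjusted p = 0.0331) and against arp6-1 (-0.96, adjusted p = 0.0361). PCNA1 was higher in gcn5-7 against Col-0 of B (0.56, adjusted p = 0.00571). In these comparisons 6.73% and 2.42% of genes were called lower and 13.3% higher. In bulk RNA of whole seedlings, fewer cells of a type and less RNA per cell cannot be told apart for any of these genes.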

How the data were processed

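The members and gene lists were chosen with earlier results of these data known. Reads were trimmed with fastp 0.23.4 and aligned with HISAT2 2.2.1 to TAIR10, per the submitters' processing notes. The tool that counted reads, its strand setting and the annotation were not given in the sources used here. The deposited values are a signal, TPM scaled by TMM, in 1 table per experiment, per the labels and column sums that are not equal. Value times exon length gave whole reads, within 0.05, for 98.0 to 99.6% of values below 20 reads. Exon lengths, found for 32548 of 32833 genes, positions and sequences came from RefSeq TAIR10.1, and none of the positions stand in the deposited files.

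Each table was fitted apart as log2(value + 1), for genes with a mean of at least 1 (18322 in A, 19507 in B). A single limma model (limma 3.58.1 in R 4.3.3) covered all genotypes of a table, using a mean-variance trend, robust empirical Bayes and Benjamini-Hochberg adjustment over all genes tested, at 0.05. The fit was tested on simulated data, with reads drawn independently for each gene and library. That simulation held no exon-length trend, outlying libraries or replicate pairs, so it does not bear on how the fit handles them. Ratios were compared by exact permutation tests (scipy 1.17.1). Named genes are the members and, per list and comparison, up to 3 called genes of smallest adjusted p. Genes like a member are the 5 of highest Pearson r in B. The length trend was removed with a lowess curve (span 0.3) of each library's deviations on log2 exon length. Intervals are 95% and, as depth enters only through the spread of libraries, cover that spread.

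Alternatives were another pseudocount (0.1), no filter, equal column sums without organelle genes, quantile normalization, the length correction, a replicate block, a term for the 3 libraries apart in A, only the groups compared, and each library left out. Fits without those 3 libraries, and without replicates 1 and 2 of B, were chosen after seeing the data. The term for the 3 libraries rests on the same data, since component 1 of these values picked them. Libraries of the same number in B correlated at 0.116 to 0.798 in deviations from group means in 4 comparisons (both multiple mutants with Col-0, the triple mutant with each parent), so the numbers were taken as pairs there.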

Additional observations from a re-analysis of the deposited data

Results flagged for a closer look

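In experiment B, 5 combinations of a genotype with a gene or a ratio held 1 library far from the other 4. This was judged by its gap to the nearest library as a share of the range of the genotype. By chance about 1 combination in 20 is marked in this way, and since the genes vary together the 5 are not independent. HTA9 reached 273 TMM-scaled TPM in replicate 2 of the triple mutant (gap 0.799 of the range), 178 in replicate 2 of gcn5-7 (gap 0.728) and 552 in replicate 2 of nrp1-1 nrp2-2 (gap 0.759). HTA11 reached 34.2 TMM-scaled TPM in replicate 2 of gcn5-7 (gap 0.796). The log2 ratio of HTA9 to HTA11 was lowest in replicate 1 of the triple mutant, at 1.99 (gap 0.798). Replicate 2 also had the lowest exon-length trend of its genotype in the triple mutant, gcn5-7 and nrp1-1 nrp2-2, with rho of -0.337, 0.0879 and -0.502, and the part of that trend in these values was not tested.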

How the results depend on the processing

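Differences of HTA8, HTA9 and HTA11 are log2, in that order where 3 are given. In gcn5-7 arp6-1 against arp6-1, where 1 H2A.Z gene was called, 0 were called with no filter on low values, with equal column sums or with the length correction, 2 with quantile normalization, and 3 with the term for the 3 libraries that stood apart, without those libraries (chosen after seeing the data) or with only the groups compared. Against gcn5-7, where 0 were called, 2 were called with that term and 2 without those libraries. For the interaction in A, with 0 called, it was 2 with the term and 3 without the libraries. Leaving out 1 library gave 0 to 1 against arp6-1 and 0 to 3 against Col-0. Where this left 1 Col-0 library in A, that library was assumed to vary like the other groups. The interactions had no fit with only the groups compared. The other counts of H2A.Z genes kept their side of the threshold under these alternatives, apart from the block below. No ratio was called, from which nothing is read, since the smallest p is 0.00794 before adjustment over 9 ratios, 0.0625 with the block and 0.1 for 3 libraries against 3.

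Signs of small differences changed. In gcn5-7 against Col-0 of A, HTA8 and HTA9 were 0.20 and 0.24 with equal sums, 0.023 and 0.063 with the length correction, 0.10 and 0.23 with the term and 0.52 and 0.43 without the 3 libraries, and HTA9 was 0.13 with quantile normalization. In gcn5-7 against Col-0 of B, HTA9 was 0.062 with equal sums and HTA8 -0.026 with quantile normalization. In nrp1-1 nrp2-2, HTA8 was -0.083 with equal sums, -0.016 with the length correction and -0.19 without replicates 1 and 2 (chosen after seeing the data). In the triple mutant against Col-0, HTA8 and HTA11 were 0.078 and 0.049 with equal sums and 0.065 and 0.013 with the length correction, and without replicates 1 and 2 HTA11 was 0.11 and the log2 ratio of HTA8 to HTA11 -0.11. Against gcn5-7, HTA9 was -0.11 with equal sums, -0.022 with quantile normalization and -0.0036 with the length correction. Against nrp1-1 nrp2-2, HTA8 was 0.16, 0.082 and 0.19 with equal sums, the length correction and without replicates 1 and 2. The interaction in B was -0.067 for HTA11 with equal sums, -0.048 with the length correction, and 0.0058, 0.021 and -0.073 for the 3 genes without replicates 1 and 2. MBD9 in gcn5-7 arp6-1 was -0.096 against gcn5-7 and -0.15 against arp6-1 with the length correction. The cause of these changes was not tested.

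With 1 library left out, the 3 genes ran from -1.25 to 0.92, -1.42 to 1.15 and -1.40 to 0.23 in gcn5-7 of A, and from -0.66 to 1.51, -0.93 to 1.63 and -0.57 to 1.06 in arp6-1. In B, HTA8 ran from -0.11 to 0.14 in gcn5-7, HTA8 and HTA9 from -0.16 to 0.33 and -0.14 to 0.38 in nrp1-1 nrp2-2, and HTA8 and HTA11 from -0.17 to 0.11 and -0.27 to 0.13 in the triple mutant, whose log2 ratio of HTA8 to HTA11 ran from -0.084 to 0.13. Against gcn5-7, HTA8 and HTA9 ran from -0.19 to 0.083 and -0.017 to 0.26, and against nrp1-1 nrp2-2 HTA8 from -0.37 to 0.12. The interaction in B ran from -0.40 to 0.10, -0.22 to 0.31 and -0.17 to 0.31. The 39 calls of other named genes kept their sign except for MBD9 above, and 159 of 640 repeats took 1 past 0.05. Calls over all genes ranged, with a main count first, 26 and 0 to 1468, 3 and 0 to 161, 378 and 0 to 7217, 2504 and 552 to 7445, 2715 and 418 to 9712, and 252 and 0 to 7096 over the comparisons of A in the order of the plotted fold changes, and 5118 and 2347 to 9714, 76 and 11 to 334, 474 and 326 to 1787, 627 and 139 to 4953, 139 and 24 to 1237, and 8 and 2 to 217 over those of B.

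A replicate block, where the numbers were not taken as pairs, gave 3 H2A.Z genes called in gcn5-7 arp6-1 against arp6-1, 2 against gcn5-7 and 1 for the interaction in A, and 1 in gcn5-7 against Col-0 of B (HTA11, -0.51, adjusted p = 0.0371). The block also raised the number of all genes called in the paired comparisons of B, so these counts are not read as particular to the members. With the block HTA8 and HTA9 were 0.016 and 0.15 in gcn5-7 of A. Same-numbered libraries correlated from -0.0334 to 0.859 in those comparisons of A and from 0.0185 to 0.601 in gcn5-7 against Col-0 of B, and 6 of 10 libraries of the last correlated best with their own number. Among the paired comparisons of B the block changed no call of an H2A.Z gene.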
